A study of Homo sapiens with 9 samples.

Results

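Notch receptors, ligands and HES/HEY targets were followed in OEC-M1 cells, a head and neck squamous cell carcinoma line, after knockdown of GATA3 or HIF-1α under hypoxia. The set held 10 genes of the 47753 gene names on the arrays, namely the receptors NOTCH1, NOTCH2, NOTCH3 and NOTCH4, the ligands JAG1, JAG2 and DLL1, and the targets HES1, HEY1 and HEYL. Its members were all probes that were not controls and whose accession matched 1 of these symbols in RefSeq, which gave 14 of 58201 probes. RNA was measured on 9 Agilent arrays with 1 dye, 3 for each of 3 groups. The control group (si-Control) received non-targeting siRNA, the GATA3 knockdown group received GATA3 siRNA, and the HIF-1α knockdown group received HIF-1α siRNA. All 3 groups were grown in RPMI with serum, transfected for 72 h and held at 1% O2 for 18 h, so no group of normoxic cells enters any comparison here. The legend of the study's array figure names a single siRNA per target, so effects of that siRNA and of the loss of its target were measured together. The sample titles number the arrays, and similar names stand for separate siRNAs elsewhere in the methods, so the numbers were read as replicates without the sources settling it. Nothing in the labels states that the 3 arrays of a group came from separate cultures, and the P values measure only the spread between these arrays, which may be technical.

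Notch signalling passes from a ligand on one cell to a receptor on its neighbour. Binding of a Jagged or Delta-like ligand lets ADAM proteases and then the γ-secretase complex cut the receptor, and the released intracellular domain enters the nucleus, joins the DNA-binding protein RBPJ and the Mastermind coactivators, and switches on HES and HEY genes, which encode transcriptional repressors. In squamous epithelium NOTCH1 is known for its role in differentiation and for loss-of-function mutations in head and neck carcinoma, and Notch signalling is also known to cross-talk with HIF-1α in hypoxic cells.

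Because RBPJ, described further on, was among the pathway genes that fell in HIF-1α knockdown, the promoters of the targets are shown with its binding letters. The 250 bases before the gene start were taken from RefSeq (GRCh38.p14) for the 8 members with a window used here, and were searched on both strands for the RBPJ core TGGGAA, the hypoxia response core ACGTG or GCGTG, and the GATA letters AGATAA or TGATAA. The letters CACGTG hold ACGTG on both strands and would count once on each. HES1, on the plus strand, and HEYL, on the minus strand, were the members whose window held the RBPJ core, 2 copies each, and capitals mark these copies in the windows chr3:194135898-194136147 and chr1:39639644-39639893, each written 5′ to 3′ on the gene's strand.
HES1: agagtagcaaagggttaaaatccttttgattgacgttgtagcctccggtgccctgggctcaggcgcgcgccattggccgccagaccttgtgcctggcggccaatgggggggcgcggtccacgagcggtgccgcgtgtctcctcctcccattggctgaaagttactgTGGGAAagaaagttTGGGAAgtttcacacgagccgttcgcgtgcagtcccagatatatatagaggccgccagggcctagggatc
HEYL: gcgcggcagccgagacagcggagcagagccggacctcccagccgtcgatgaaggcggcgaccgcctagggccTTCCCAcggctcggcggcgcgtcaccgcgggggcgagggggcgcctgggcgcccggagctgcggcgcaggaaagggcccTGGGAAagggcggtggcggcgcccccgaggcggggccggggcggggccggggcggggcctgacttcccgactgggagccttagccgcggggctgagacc
Of 35116 RefSeq promoters of this length, 20.8% held the RBPJ core, 43.2% a hypoxia response core and 14.6% the GATA letters. The hypoxia response core stood in 5 of the 8 windows, with 4 copies for JAG1, 2 each for HES1 and NOTCH1, and 1 each for JAG2 and NOTCH3. The HEYL, NOTCH2 and NOTCH4 windows held none of it, and none of the 8 windows held the GATA letters. These matches describe letters in the window and were not tested as binding sites.

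The targeted genes were checked first. GATA3, a zinc-finger transcription factor, was at log2 intensities of 10.71, 11.12 and 11.48 on the si-Control arrays and at 9.64, 9.48 and 10.40 after GATA3 siRNA, and fell by 1.27 on the log2 scale (SE 0.34, adjusted P = 1.00 in limma) with no overlap between the groups. HIF1A, which encodes the oxygen-regulated subunit of HIF-1, was at 16.71, 16.24 and 17.24 in si-Control and at 14.51, 14.13 and 14.59 after HIF-1α siRNA, and fell by 2.32 (SE 0.35, adjusted P = 0.295 in limma), again with no overlap. Both passed an unadjusted two-sided P of 0.05 in limma, the threshold of the study's methods, which is meant below wherever a difference is said to pass. The arrays were hybridised on 3 slides, each with 1 array of every group, and the median spot intensity ranged from 992.5 to 3560. Replicate 3 of si-Control was the dimmest and stood apart from its group, with a correlation over all genes of 0.931 and 0.957 with the other si-Control arrays and 0.983 with the GATA3 knockdown array of its own slide. Between 73.3% and 88.0% of probes on an array were marked as well above background by the scanner software. This mark did not separate cell types, since it was present on all 9 arrays for 8 of 10 squamous epithelial markers, for 3 of 5 endothelial, 3 of 4 measured leukocyte and 3 of 5 fibroblast markers. The basal keratin KRT5 was not well above background on any array, while KRT14, TP63 and CDH1 were on all 9.

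Of the 10 members, 0 passed in GATA3 knockdown against si-Control, where 2.97% of all genes tested did, and 0 members had groups that did not overlap, against 6.03% of all genes. In HIF-1α knockdown against si-Control 0 of 10 passed, against 5.23% of all genes. In the comparison of the knockdowns with each other 1 of 10 passed, HEYL, against 12% of all genes, so the count of members was near that of the arrays as a whole. After Benjamini-Hochberg adjustment in limma 0 members passed in any comparison, and the genes of the whole array that passed were 0 in each knockdown against si-Control and 2 (0.00422%) between the knockdowns. The median log2 fold change of the members was 0.01 in GATA3 knockdown, 0.07 in HIF-1α knockdown and −0.05 between them, beside −0.02, −0.01 and 0.00 over all genes. The comparisons share arrays and are not independent of each other.

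**Figure D1:**
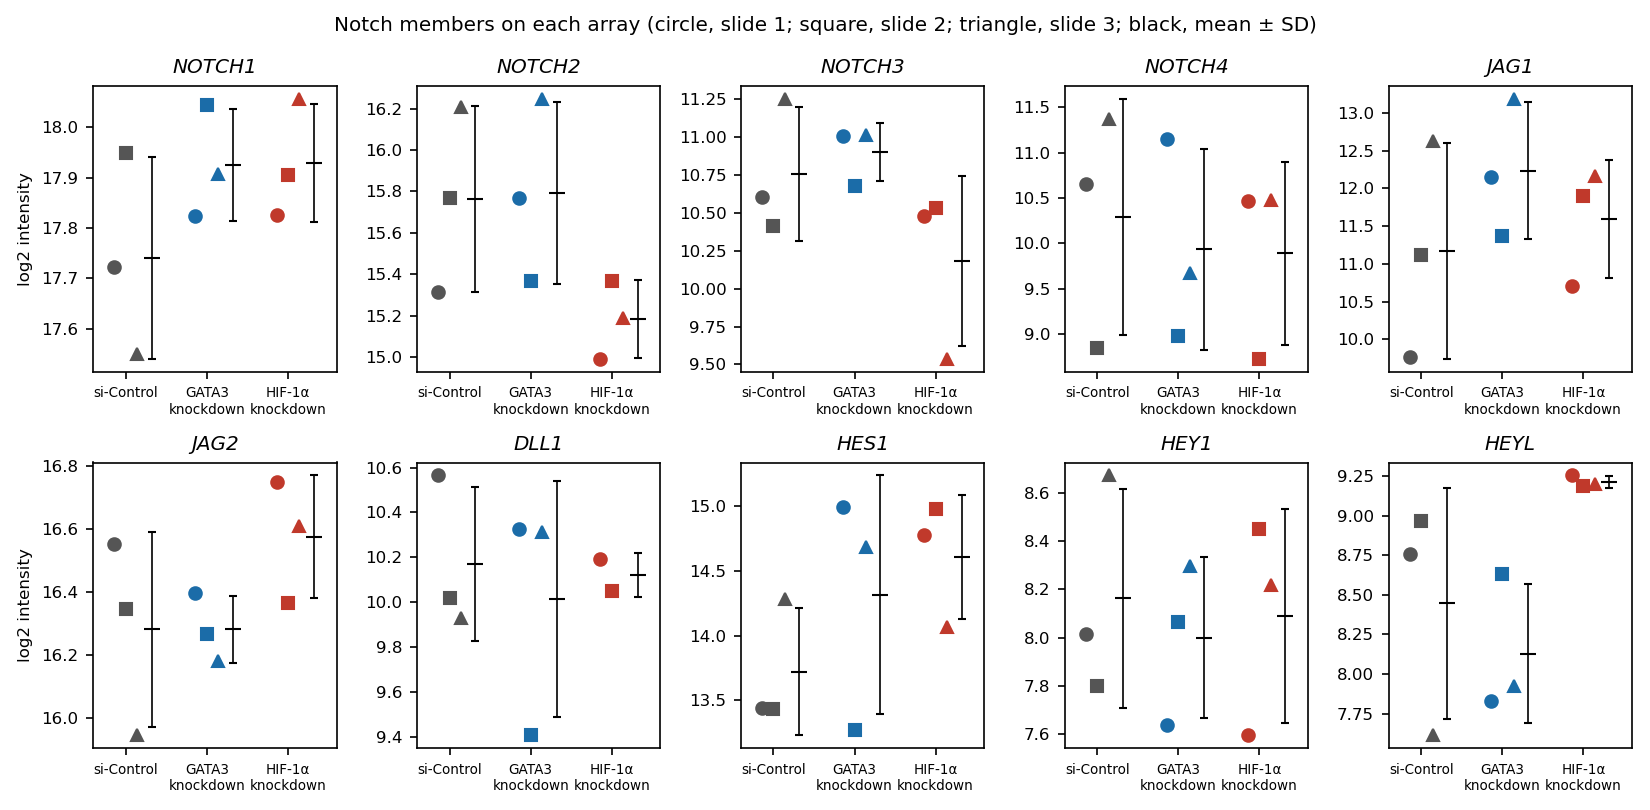
Normalised log2 intensity of each member (vertical axes, a separate scale for each gene) on every array of the 3 groups, with symbols for the slides and black bars for the mean ± SD of the group. HEYL is the member whose 3 HIF-1α knockdown arrays, from 9.19 to 9.26, lie above every array of the other groups.

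**Figure D2:**
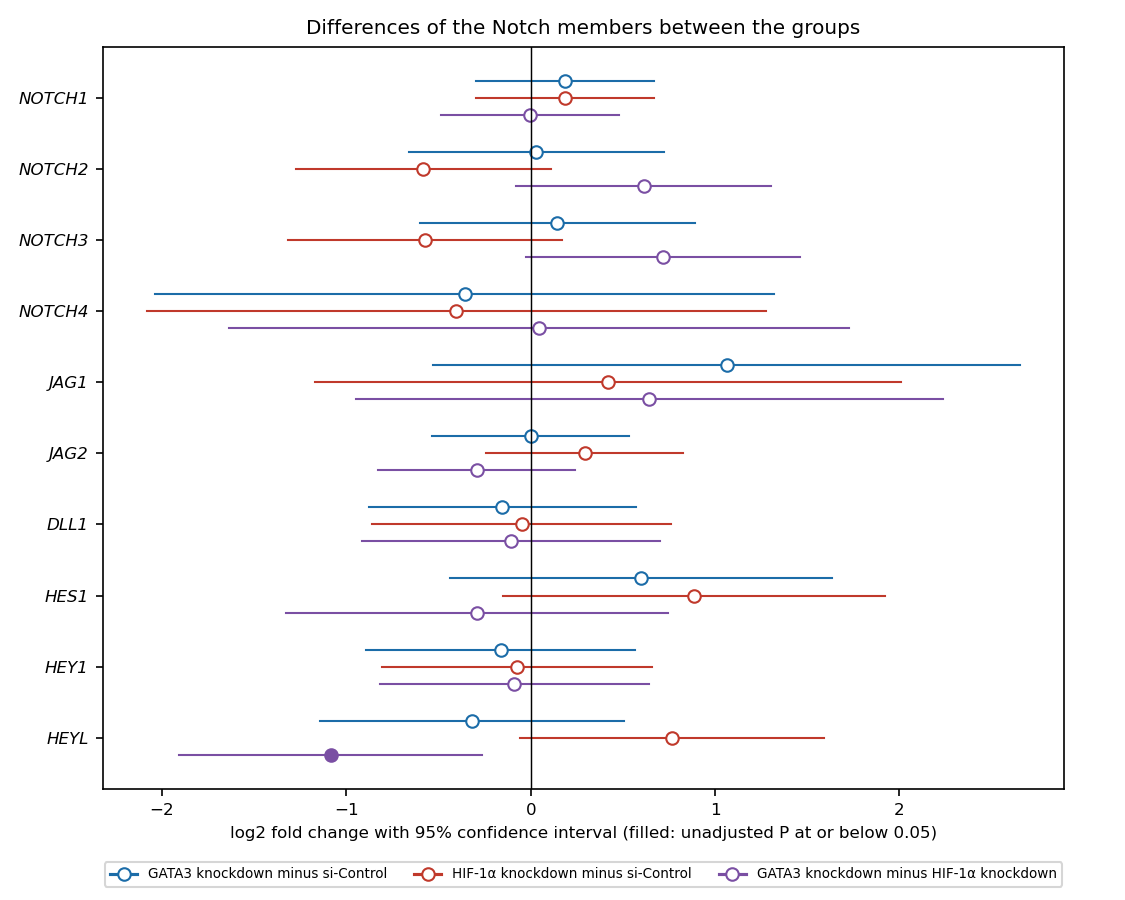
Log2 fold change of each member with its 95% confidence interval in limma for the 3 comparisons, with filled points at an unadjusted P of 0.05 or below. HEYL in GATA3 knockdown against HIF-1α knockdown, at −1.09, is the filled point, and the intervals of JAG1 and NOTCH4 are the widest.

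None of the receptors passed in any comparison. NOTCH1, the receptor best known in keratinocytes, had log2 intensities of 17.72, 17.95 and 17.55 in si-Control, 17.82, 18.04 and 17.91 in GATA3 knockdown and 17.83, 17.90 and 18.06 in HIF-1α knockdown. The groups overlapped, and all 9 arrays lay in a narrow range after quantile normalization. Its log2 fold change was 0.18 (95% CI −0.30 to 0.67) in GATA3 knockdown and 0.19 (95% CI −0.29 to 0.67) with HIF-1α siRNA. The latter turned to −0.21 with the processed signal or the deposited log2 table and to −0.23 with 75th percentile scaling after normexp. Between the knockdowns the difference was −0.00, and the alternatives gave −0.06 to 0.51. None of these passed.

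NOTCH2 was at 15.31, 15.77 and 16.21 in si-Control, at 15.77, 15.37 and 16.25 in GATA3 knockdown and at 14.99, 15.37 and 15.19 in HIF-1α knockdown. The HIF-1α knockdown arrays were the lowest of their slides on slides 1 and 3, and the groups overlapped. The difference from si-Control was −0.58 (SE 0.31, 95% CI −1.27 to 0.11, adjusted P = 0.823 in limma), lower on 3 of 3 slides, as were 22.3% of all genes in that comparison. It did not pass, but passed at −0.81 without si-Control replicate 1. Over all the alternatives tried it ran from −0.81 to −0.23. GATA3 knockdown was above HIF-1α knockdown by 0.61 (SE 0.31), which did not pass, and by 0.83 without GATA3 knockdown replicate 2, which did. The alternatives gave 0.24 to 0.83 for this difference. NOTCH2 shares near-identical sequence with the NOTCH2NL genes, so the source of its signal is uncertain.

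NOTCH3, a receptor also expressed in vascular smooth muscle, was at 10.60, 10.41 and 11.25 in si-Control, at 11.01, 10.68 and 11.01 in GATA3 knockdown and at 10.48, 10.53 and 9.54 in HIF-1α knockdown. Every GATA3 knockdown array was above every HIF-1α knockdown array, and 22.8% of all genes did not overlap between these groups. The difference of 0.72 (95% CI −0.03 to 1.46, adjusted P = 0.421 in limma), higher on 3 of 3 slides as were 19.9% of all genes, did not pass. It passed in a fit of these 6 arrays alone, without si-Control replicate 3, and without HIF-1α knockdown replicate 1 (0.87) or 2 (0.89). Leaving out single arrays gave 0.39 to 0.89, so its size is uncertain. Against si-Control, NOTCH3 differed by −0.57 (SE 0.33) in HIF-1α knockdown and did not pass, with −1.71 on slide 3 and −0.12 and 0.12 on slides 1 and 2.

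NOTCH4, known mainly from endothelium, varied more within groups than between them. Its values were 10.66, 8.85 and 11.37 in si-Control, 11.15, 8.98 and 9.68 in GATA3 knockdown and 10.46, 8.73 and 10.48 in HIF-1α knockdown. The array of slide 2 was the lowest of each group. The log2 fold changes were −0.36 (95% CI −2.04 to 1.32) in GATA3 knockdown and −0.40 (95% CI −2.08 to 1.28) with HIF-1α siRNA. Neither had a stable direction. In GATA3 knockdown the difference was −1.08 without si-Control replicate 2 and 0.18 without si-Control replicate 3, and it was also above 0 without GATA3 knockdown replicate 2. In HIF-1α knockdown it was −1.12 without si-Control replicate 2 and 0.18 without HIF-1α knockdown replicate 2, and also above 0 without si-Control replicate 3.

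Among the ligands, JAG1, which encodes Jagged-1, had the largest fold change of a member against si-Control and also one of the largest spreads. It was at 9.77, 11.12 and 12.63 in si-Control, at 12.15, 11.37 and 13.19 in GATA3 knockdown and at 10.71, 11.91 and 12.17 in HIF-1α knockdown. The 3 groups overlapped, and the si-Control arrays alone spanned most of the range. In GATA3 knockdown it was higher on 3 of 3 slides, by 2.39, 0.25 and 0.55, as were 14.3% of all genes. The mean difference of 1.06 on the log2 scale (SE 0.71, 95% CI −0.53 to 2.65) did not pass. With the slide, which is also the replicate number, as a replicate block the SE was 0.44 and JAG1 passed (adjusted P = 0.974 in limma), as did 4.99% of all genes. Without si-Control replicate 3 the difference was 1.79 and passed, and 6006 genes passed in place of 1418, whereas without si-Control replicate 1 it was 0.36 and did not pass. In HIF-1α knockdown JAG1 differed by 0.42 (SE 0.71) and did not pass, with 0.94, 0.79 and −0.46 on the slides. That difference was −0.28 without si-Control replicate 1 and 1.15 without si-Control replicate 3, so its direction rests on 1 array.

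The level of JAG1 moved with the brightness of the arrays. The median spot intensity was 2807.5, 2126.5 and 992.5 in si-Control, 1627, 2452 and 1410 in GATA3 knockdown and 3560, 2132 and 2502.5 in HIF-1α knockdown. In each group the brightest array had the lowest JAG1 value. With the log2 median intensity of each array as a covariate the JAG1 difference was 1.02 in GATA3 knockdown against si-Control and 1.46 in HIF-1α knockdown against si-Control, and both passed, while 4834 and 3709 genes passed in these comparisons in place of 1418 and 2478. The part of array brightness in the JAG1 values was not tested otherwise.

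**Figure D3:**
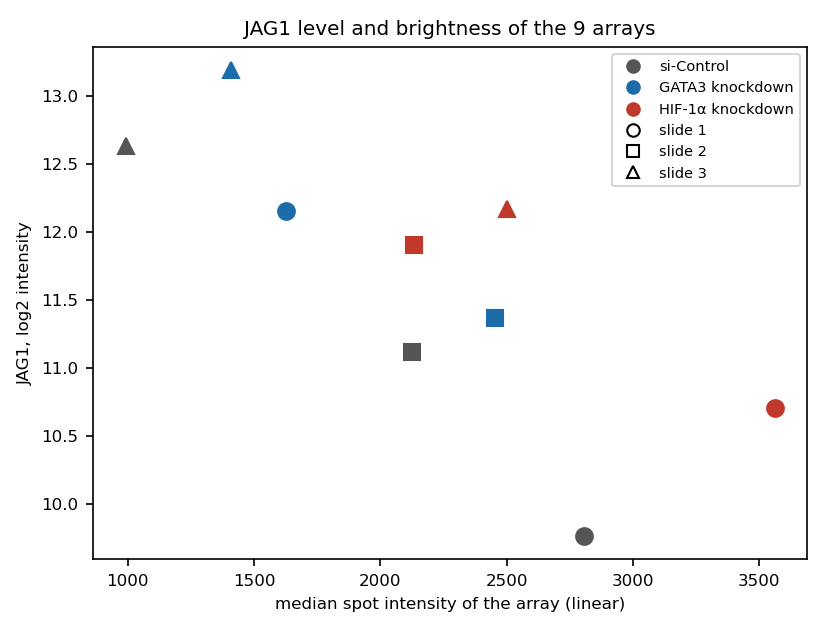
Normalised log2 intensity of JAG1 (vertical axis) against the median spot intensity of the array on a linear scale (horizontal axis) for the 9 arrays, coloured by group with symbols for the slides. The dimmest array, at 992.5, had a JAG1 value of 12.63, and the brightest, at 3560, one of 10.71.

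JAG2, which encodes Jagged-2, was at 16.55, 16.35 and 15.95 in si-Control, at 16.40, 16.27 and 16.18 in GATA3 knockdown and at 16.75, 16.37 and 16.61 in HIF-1α knockdown. The groups overlapped in every comparison. The HIF-1α knockdown arrays were higher than si-Control on 3 of 3 slides, as were 13.1% of all genes, by 0.29 on average (95% CI −0.24 to 0.83), which did not pass. In GATA3 knockdown the difference was −0.00 (95% CI −0.54 to 0.53). These values are those of the brightest of 3 JAG2 probes. On slide 3 it differed from si-Control by 0.66 in HIF-1α knockdown, whereas the other JAG2 probes differed by −0.77 and −0.64.

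DLL1, which encodes Delta-like 1, was at 10.56, 10.02 and 9.93 in si-Control and at 10.32, 9.41 and 10.31 in GATA3 knockdown. In HIF-1α knockdown it was at 10.19 and 10.05 on replicates 1 and 2, and its spot on replicate 3 was marked non-uniform and left out of the fit. The groups overlapped. The differences were −0.15 (95% CI −0.88 to 0.57) in GATA3 knockdown and −0.05 (95% CI −0.86 to 0.76) with HIF-1α siRNA. Their signs turned when single arrays were left out, to 0.15 without GATA3 knockdown replicate 2 and to 0.15 without si-Control replicate 1.

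NOTCH1, NOTCH2 and JAG2 had more than 1 probe, and the probes of a gene did not always move together. For NOTCH1 the dimmer probe correlated with the brighter at r = 0.0487 over the 9 arrays and differed by −0.26 in GATA3 knockdown and by −0.35 with HIF-1α siRNA, opposite in sign to the brighter one. For NOTCH2 the pair correlated at r = 0.908, and the dimmer probe differed by −0.74 in HIF-1α knockdown, the same sign as the brighter. For JAG2 the brightest of 3 probes correlated with the others at r = −0.766 and −0.717, and those correlated with each other at r = 0.884. In HIF-1α knockdown the 3 JAG2 probes differed by 0.29, −0.10 and 0.16. The arrays behind a correlation share groups and slides, and these coefficients are descriptions. None of these probes passed in any comparison, and for NOTCH1 and JAG2 no direction is concluded, since their probes differed in sign.

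**Figure D4:**
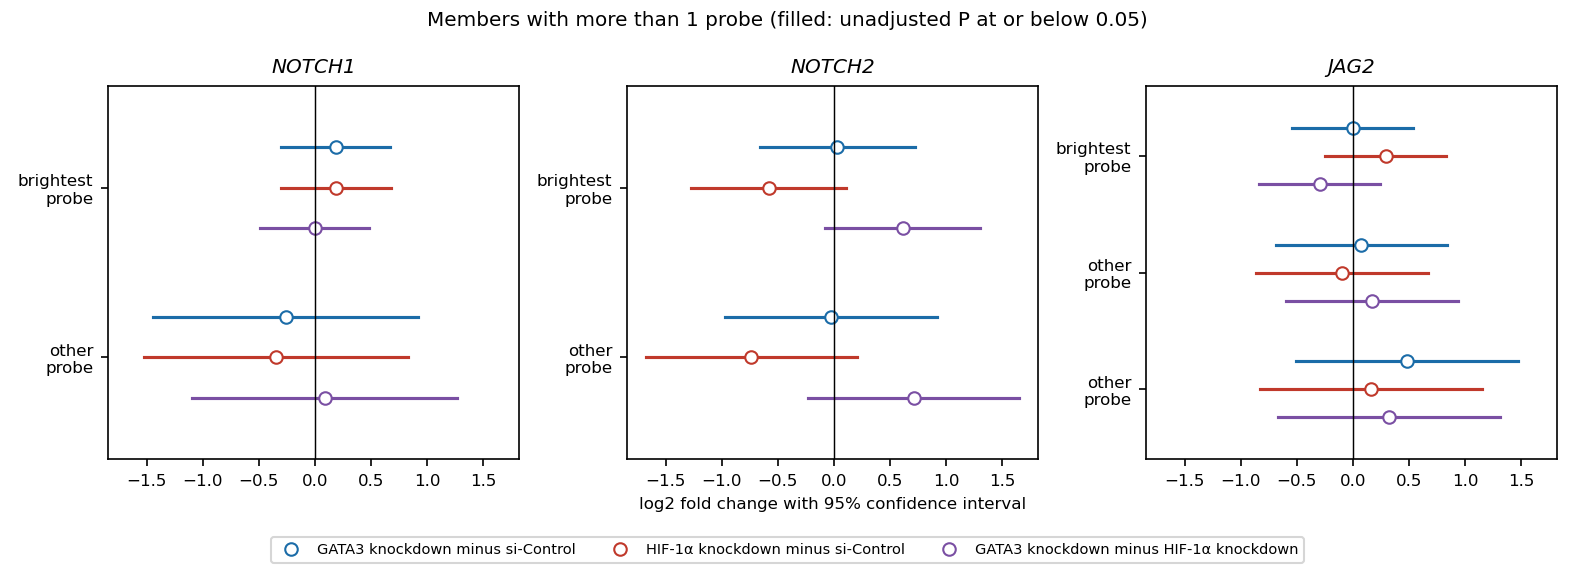
Log2 fold change with 95% confidence interval in limma for every probe of NOTCH1, NOTCH2 and JAG2 in the 3 comparisons, with the brightest probe of each gene at the top. Both NOTCH2 probes lie below 0 in HIF-1α knockdown, at −0.58 and −0.74, whereas the NOTCH1 and JAG2 probes lie on both sides of 0.

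Among the targets, HES1, a repressor that is a direct target of Notch in many tissues, was at 13.44, 13.43 and 14.29 in si-Control, at 15.00, 13.27 and 14.69 in GATA3 knockdown and at 14.78, 14.98 and 14.06 in HIF-1α knockdown. The HIF-1α knockdown array was above si-Control by 1.34 and 1.55 on slides 1 and 2 and below it by 0.22 on slide 3, and the groups overlapped. The mean difference of 0.89 (SE 0.46, 95% CI −0.15 to 1.92, adjusted P = 0.823 in limma) did not pass. It passed in a fit of these 6 arrays alone, with array brightness as a covariate (1.32) and without si-Control replicate 3 (1.17). It also passed without GATA3 knockdown replicate 2, which changes only the estimate of the spread. Leaving out single arrays gave 0.70 to 1.17. In GATA3 knockdown HES1 differed by 0.60 (SE 0.46), with 1.55, −0.16 and 0.40 on the slides, and did not pass. It passed at 1.12 without GATA3 knockdown replicate 2, but was 0.26 without replicate 1 and 0.41 without replicate 3 of that group.

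HEYL, a HEY-family repressor, was at 8.76, 8.97 and 7.61 in si-Control, at 7.83, 8.63 and 7.92 in GATA3 knockdown and at 9.26, 9.19 and 9.20 in HIF-1α knockdown. All 3 HIF-1α knockdown arrays lay above all arrays of both other groups, which overlapped with each other. Between the knockdowns 22.8% of all genes did not overlap. HEYL is dim, and its probe was well above background on 2 of 3 si-Control arrays, 3 of 3 HIF-1α knockdown arrays and 1 of 3 GATA3 knockdown arrays. The difference of GATA3 knockdown from HIF-1α knockdown was −1.09 on the log2 scale (SE 0.37, 95% CI −1.91 to −0.26, adjusted P = 0.375 in limma), which passed. The difference was −1.43, −0.55 and −1.28 on the slides, and 18.2% of all genes were lower on all 3. It passed with the replicate block too (adjusted P = 0.185 in limma), as did 18.7% of all genes. Without GATA3 knockdown replicate 1 it was −0.93 and did not pass. It was −2.22 with the deposited log2 table and −0.64 with array brightness as a covariate, and passed in both, so its size is uncertain.

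Against si-Control, HEYL was higher in HIF-1α knockdown on 3 of 3 slides, by 0.49, 0.22 and 1.59, and the groups did not overlap, which held for 13.3% of all genes. The mean difference of 0.77 (SE 0.37, 95% CI −0.06 to 1.59, adjusted P = 0.823 in limma) did not pass. It passed with the replicate block (adjusted P = 0.590 in limma), as did 8.41% of all genes, and at 1.03 without si-Control replicate 2. Leaving out single arrays gave 0.35 to 1.03. In GATA3 knockdown HEYL differed by −0.32 (SE 0.37) and did not pass. It passed at −0.74 without si-Control replicate 3 but was −0.06 without si-Control replicate 2.

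HEY1, the other HEY-family member of the set, was well above background on 2 of 3 si-Control arrays, 1 of 3 HIF-1α knockdown arrays and 0 of 3 GATA3 knockdown arrays. Its values were 8.02, 7.80 and 8.67 in si-Control, 7.64, 8.07 and 8.30 in GATA3 knockdown and 7.60, 8.45 and 8.22 in HIF-1α knockdown, and all groups overlapped. The HEY1 probe is so dim that no size is read from its differences. No difference passed, and that of GATA3 knockdown from si-Control changed from −0.16 to 0.09 without si-Control replicate 3.

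The genes most like a member over the 9 arrays were sought among 15054 genes that were well above background on all 9. For HES1 they were CAMK2G, SLC25A40 and H3-4 (r = 0.947, 0.926 and 0.925). For JAG1 they were MFHAS1, LPCAT2 and ACVR1 (r = 0.996, 0.986 and 0.983), and for NOTCH1 they were B3GAT3, KIRREL2 and ZFPM1 (r = 0.927, 0.922 and 0.917). The NOTCH1 values are those of its brighter probe, with which the dimmer NOTCH1 probe correlated at r = 0.0487. The arrays share groups, slides and brightness, and these correlations describe 9 points.

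Beyond the members, 50 partners of the pathway were listed by role, of which 48 were measured and 45 were well above background on all 9 arrays. In GATA3 knockdown 1 of 48 passed, lower (2.08%, against 2.97% of all genes), in HIF-1α knockdown 3 passed, 1 higher and 2 lower (6.25%, against 5.23%), and between the knockdowns 9 passed, 6 higher and 3 lower with GATA3 siRNA (18.8%, against 12%). After adjustment in limma 0 passed in each comparison. The median log2 fold change of the partners was 0.01, −0.10 and 0.05 in these comparisons, beside −0.02, −0.01 and 0.00 over all genes.

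RBPJ, the DNA-binding protein to which the Notch intracellular domain attaches, had the largest difference of a partner. It was at 13.38, 13.69 and 14.60 in si-Control, at 14.67, 13.80 and 14.76 in GATA3 knockdown and at 12.08, 12.50 and 12.60 in HIF-1α knockdown. Every HIF-1α knockdown array was below every array of the other groups. Over all genes, 13.3% did not overlap between HIF-1α knockdown and si-Control, and 22.8% did not between the knockdowns. With HIF-1α siRNA RBPJ was 2.82-fold lower than in si-Control, −1.50 on the log2 scale (SE 0.37, adjusted P = 0.650 in limma). It was lower on 3 of 3 slides, as were 22.3% of all genes. With GATA3 siRNA it was 2.02 higher on the log2 scale than with HIF-1α siRNA (SE 0.37, adjusted P = 0.160 in limma). Both differences passed, as did those of a second RBPJ probe, at −1.15 and 1.67. Leaving out single arrays gave −1.75 to −1.14 and 1.84 to 2.32, and both passed each time. HES1 and HEYL, whose windows hold the RBPJ core shown above, differed from si-Control by 0.89 and 0.77 on average in HIF-1α knockdown, and neither passed. HES1 was below si-Control on slide 3. HEY1, the other target in the set, was not higher on average, and its promoter was not analysed. Whether the level of RBPJ bears on any of these targets was not tested.

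In HIF-1α knockdown DTX1, a Deltex protein that regulates Notch trafficking, was lower by a log2 difference of −0.50 (SE 0.21), and HES2, another HES repressor with 2 arrays measured in each group, was higher by 1.27 (SE 0.37). Both passed, and neither passed with the replicate block. DTX1 also did not pass with the processed signal (−0.45), the deposited log2 table (−0.45), normexp without offset (−0.52), 75th percentile scaling after normexp (−0.43), separate fits or a trended variance. The DTX1 call ended without si-Control replicate 1 (−0.51) or 2 (−0.45) and without HIF-1α knockdown replicate 1 (−0.51), 2 (−0.55) or 3 (−0.44). The HES2 call ended without si-Control replicate 3 (0.97) or HIF-1α knockdown replicate 3 (1.20). In GATA3 knockdown DLL4, a Delta-like ligand prominent in vessels, differed by −0.86 (SE 0.36) and passed. Its groups did not overlap, as in 6.03% of all genes, and it was lower on 3 of 3 slides, as were 14.5%. That call ended without si-Control replicate 1 (−0.55) or 2 (−0.94) and without GATA3 knockdown replicate 1 (−0.67) or 3 (−0.88), and also with the processed signal (−0.82), the deposited log2 table (−0.84) and 75th percentile scaling after normexp (−0.75).

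Between the knockdowns, where 12% of all genes and 18.8% of the partners passed, all 3 proteases passed, though not in 1 direction. Passing were 0 of 6 γ-secretase genes, 0 of 6 glycosyltransferases, 0 of 4 other ligands and 0 of 3 feedback genes and corepressors. The remaining roles had 1 of 6 (nuclear complex), 3 of 13 (trafficking and ubiquitin) and 2 of 7 (other HES and HEY). No role was tested as a set. ADAM10 and ADAM17, which can cut the receptor, were higher with GATA3 than with HIF-1α siRNA by 0.82 (SE 0.34) and 0.97 (SE 0.40). FURIN, which cleaves the receptor during its maturation, differed by −0.86 (SE 0.30). Against si-Control ADAM10, ADAM17 and FURIN differed by 0.46, 0.24 and −0.33 in GATA3 knockdown and by −0.36, −0.73 and 0.53 in HIF-1α knockdown. None of these differences from si-Control passed. ADAM10 was at 14.79, 13.95 and 14.93 in GATA3 knockdown and at 13.63, 14.08 and 13.52 in HIF-1α knockdown, so the groups overlapped, whereas those of ADAM17 and FURIN did not, as in 22.8% of all genes. A second ADAM10 probe differed by 0.79 (SE 0.37) and did not pass. With array brightness as a covariate ADAM10 and ADAM17 differed by 0.40 and 0.41 and did not pass. Leaving out 1 array ended the ADAM10 call for 5 of the 9 arrays, namely si-Control replicate 2 (0.82), GATA3 knockdown replicates 1 (0.70) and 3 (0.63) and HIF-1α knockdown replicates 1 (0.76) and 3 (0.70). The same held for ADAM17 with si-Control replicate 2 (0.97), GATA3 knockdown replicates 1 (0.96) and 3 (0.75) and HIF-1α knockdown replicates 1 (0.77) and 2 (1.05), and for FURIN with GATA3 knockdown replicates 1 (−0.78) and 2 (−0.73).

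Among genes of trafficking and ubiquitin transfer, NUMBL, a relative of the Notch inhibitor NUMB, was higher with GATA3 siRNA than after HIF-1α knockdown by 1.14 (SE 0.51), and DTX1 by 0.50 (SE 0.21). NEURL1, a ubiquitin ligase for ligands, differed by −0.96 (SE 0.34), with its spot on GATA3 knockdown replicate 2 missing from the fit. Among the other repressors HES7, known from the segmentation clock, was higher by 0.77 (SE 0.31) and HES2 differed by −1.12 (SE 0.37). Each had 2 arrays measured in every group, without si-Control replicate 1, GATA3 knockdown replicate 2 and HIF-1α knockdown replicate 1. For HES7 and HES2 the knockdowns thus shared only slide 3. All 5 differences between the knockdowns passed. Against si-Control NUMBL, NEURL1 and HES7 differed by 0.59, −0.46 and 0.15 in GATA3 knockdown and by −0.55, 0.50 and −0.62 in HIF-1α knockdown. None of these differences from si-Control passed. Between the knockdowns, NUMBL (0.37), NEURL1 (−0.58), HES2 (−0.73) and HES7 (0.63) did not pass with array brightness as a covariate. With the replicate block HES2 (−1.32) and HES7 (0.91) did not. Every one of these 5 calls also ended without HIF-1α knockdown replicate 3, with differences of 1.13 for NUMBL, 0.44 for DTX1, −0.88 for NEURL1, 0.56 for HES7 and −1.04 for HES2. The NUMBL call also ended without si-Control replicate 2 (1.14), GATA3 knockdown replicates 1 (1.11) and 3 (0.84) and HIF-1α knockdown replicate 1 (0.93), and the DTX1 call without these (0.50, 0.50, 0.42 and 0.52) and without HIF-1α knockdown replicate 2 (0.56). The NEURL1 call ended as well without GATA3 knockdown replicate 1 (−0.78), that of HES2 without GATA3 knockdown replicate 3 (−0.81) or HIF-1α knockdown replicate 2 (−1.19), and that of HES7 without si-Control replicate 2 (0.77) or GATA3 knockdown replicates 1 (0.85) or 3 (0.70). With the deposited log2 table ADAM10 (0.71), ADAM17 (1.04), NUMBL (1.17), DTX1 (0.37) and HES2 (−1.20) did not pass, and of the 9 partners that passed between the knockdowns only RBPJ and FURIN kept their call under every other scaling, filter and fit tried at the unadjusted threshold. The number of partners passing between the knockdowns was 2 to 14 when single arrays were left out, 2 without GATA3 knockdown replicate 1 and 14 without GATA3 knockdown replicate 2.

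**Figure D5:**
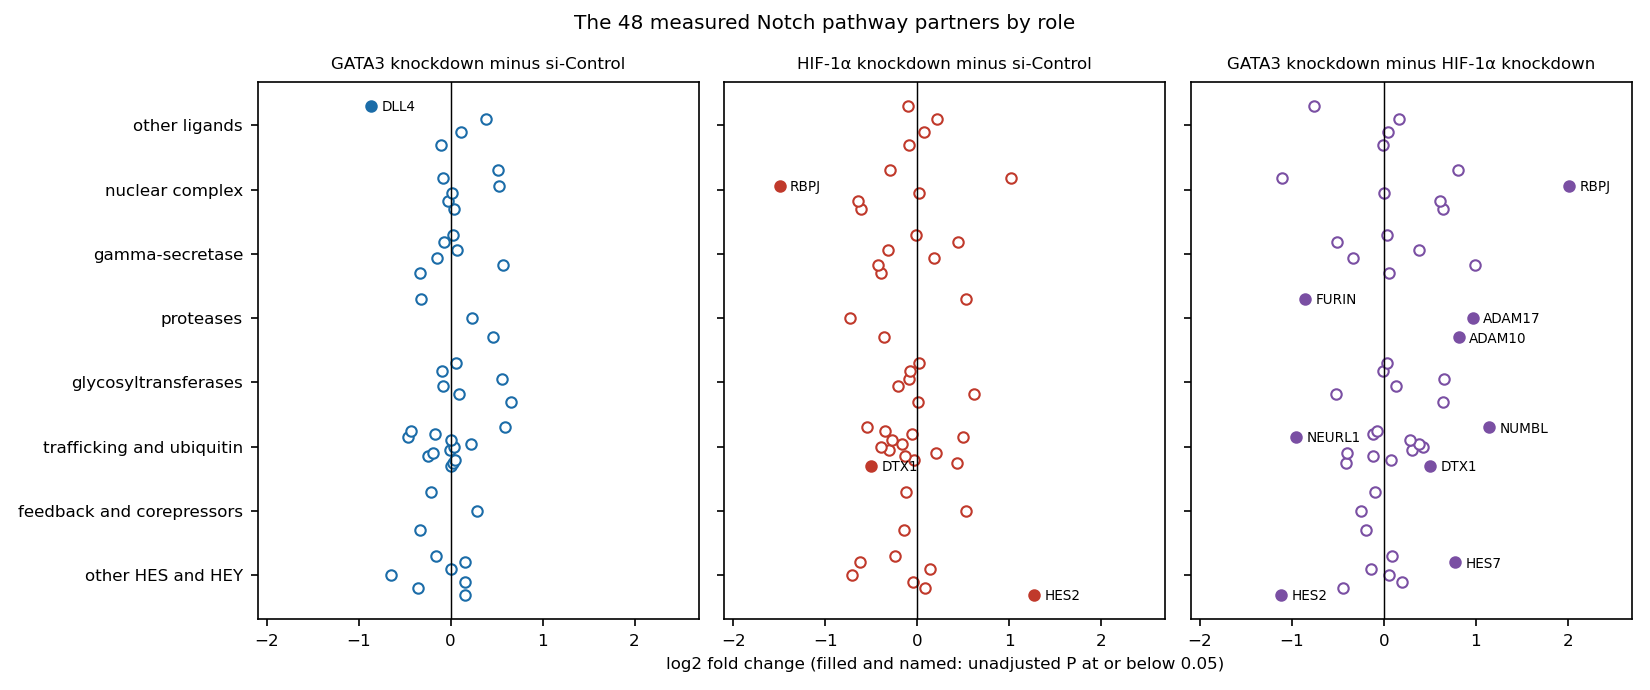
Log2 fold change of the 48 measured partners (horizontal axis) by role (vertical axis) in the 3 comparisons, with filled, named points at an unadjusted P of 0.05 or below. RBPJ lies farthest from 0 in HIF-1α knockdown, at −1.50, and between the knockdowns, at 2.02.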

How the data were processed

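RNA of OEC-M1 cells was measured on 9 arrays in 3 groups taken from the labels, whose numbers were read as replicate numbers. Per the labels and methods, the arrays were read with Feature Extraction 10.5.1.1. The authors deposited each spot's median intensity, local background and processed intensity on a linear scale, not normalized between arrays, and a log2 table. On every array 99.5% of that log2 table deposited by the authors was within 0.001 of the log2 processed intensity less a constant, so it is not quantile normalized.

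With R 4.3.3 and limma 3.58.1, the background was corrected by normexp (offset 50), non-uniform spots were set to missing, arrays were quantile normalized, and spots of a probe were averaged after dropping control spots. The methods name no background method. Accessions gave RefSeq symbols for 31104 of 58201 probes, and the brightest probe stood for a gene. The 3 groups entered 1 fit with lmFit and eBayes (6 residual degrees of freedom), counted at an unadjusted two-sided P of 0.05 as in the methods, with Benjamini-Hochberg adjustment over all genes. The fit was tested on simulated data.

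Named were all members, partners at that threshold in any comparison, GATA3, HIF1A, and the 3 genes most correlated with HES1, JAG1 and NOTCH1. The members and lists were chosen with earlier results of these data known. The number of arrays limits the precision. Each slide holds 1 array of every group, in the same position for a group, so position and group cannot be told apart. The pairing comes from the shared slide in the file headers. Deviations from group means correlated within slides at −0.19 to 0.72. The alternatives were other background corrections and scalings, the deposited table, filters on dim or non-uniform spots, other probe rules, a replicate block, separate fits, a trended variance, array brightness, adjusted P and each array left out. DLL1 and HEY1 promoters were not analysed here.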

Additional observations from a re-analysis of the deposited data

How the results depend on the processing

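For single members, 687 values were recomputed under alternatives: 667 stayed on their side of the threshold, 18 newly passed, 2 no longer passed, and 0 changed sign where either value passed. Only HEYL between the knockdowns passed to begin with, so most had no call to lose. Signs did change where neither value passed, most often for JAG2 in GATA3 knockdown (9 of 23 alternatives) and NOTCH1 between the knockdowns (8 of 23). With 3 arrays a group, the 95% interval of JAG1 in GATA3 knockdown runs from −0.53 to 2.65 and that of NOTCH4 from −2.04 to 1.32 on the log2 scale, which limits what could be detected. HEY1 and HEYL are near background. Causes of the shifts below were not tested.

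With the replicate block the members passing were 1 in each knockdown against si-Control, 0 without it, and 2 partners passed in GATA3 knockdown in place of 1. The block ended the calls of DTX1 and HES2 in HIF-1α knockdown and of HES2 and HES7 between the knockdowns, and ended no other call of a named gene, and it added calls of JAG1 in GATA3 knockdown and of HEYL after HIF-1α siRNA. With array brightness as a covariate 2 members passed in HIF-1α knockdown and 1 in GATA3 knockdown, and the partners were 7 and 8 in place of 3 and 1. Separate fits gave 1 member in HIF-1α knockdown and 2 between the knockdowns. At an adjusted P of 0.05, 0 members passed between the knockdowns and 0 partners in each comparison. The processed signal and the deposited log2 table each gave 0 partners in GATA3 knockdown and 4 between the knockdowns in place of 9, and 75th percentile scaling after normexp gave 0 in GATA3 knockdown.

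Without single arrays, the members passing were 0 to 2 in GATA3 knockdown (2 without si-Control replicate 3, 1 without GATA3 knockdown replicate 2), 0 to 1 in HIF-1α knockdown (1 without any 1 si-Control array or GATA3 knockdown replicate 2) and 0 to 2 between the knockdowns (0 without GATA3 knockdown replicate 1). The partners passing were 0 to 4, 1 to 6 and 2 to 14. Over all genes, leaving out si-Control replicate 3 gave 6006 and 9465 genes in GATA3 knockdown and between the knockdowns in place of 1418 and 5675, and 1665 in HIF-1α knockdown in place of 2478.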
